A study of Homo sapiens with 12 samples.

Results

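The genes described here are 10 genes of lipoprotein assembly, found by symbol among the 20307 Ensembl gene identifiers of the deposited TPM table (a length-normalised share of all transcripts in a library), where all 10 were present. Of these, 4 form 1 cluster on chromosome 11: APOA1, APOC3, APOA4 and APOA5. The other 6 lie elsewhere in the genome: APOA2, APOB, APOC1, APOE and APOH are apolipoprotein genes, and MTTP encodes the microsomal triglyceride transfer protein. The set was taken by gene name, and the chromosome 11 cluster was compared with the other 6 genes across the groups.

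Messenger RNA had been sequenced from Hep3B and Huh7 cells, both established lines of human liver carcinoma, in 6 groups of 2 libraries named A1 and B1. Hep3B cells were untreated controls, cells given lenvatinib at 20 µM, cells given WWL70 at 20 µM, and cells given WWL70 at 20 µM together with lenvatinib (the combination, for which the labels state no lenvatinib dose). Huh7 cells were controls or lenvatinib-resistant. Lenvatinib is a kinase inhibitor that acts on the receptors of VEGF, FGF and PDGF. WWL70, a carbamate, inhibits the serine hydrolase ABHD6. The labels state neither the exposure time, nor whether the resistant line is 1 clone or was kept in drug, nor whether A1 and B1 are separate cultures. All p-values thus rest on the spread between these libraries alone, and that spread may be technical.

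Apolipoproteins are the protein part of lipoproteins, which carry cholesterol and triglyceride in plasma, and hepatocytes are a main source of them. APOB is the single structural protein of each very low density lipoprotein particle and receives its lipid in the endoplasmic reticulum from MTTP. APOA1 and APOA2 are the main proteins of high density lipoprotein, while APOE and the small C apolipoproteins exchange between particles and set how fast these are lipolysed and cleared. The chromosome 11 cluster is transcribed in liver and, for APOA1, APOC3 and APOA4, in intestine, and nuclear receptors such as HNF4A act on its promoters.

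The hepatocyte markers ALB, AFP, TF, TTR, SERPINA1 and FGB were all at 1 TPM or more in both libraries of every group. Their summed level was 18979 to 19908 TPM in Hep3B controls, 40354 to 40428 with lenvatinib, 15663 to 18966 with WWL70 and 47002 to 58253 in the combination, against 34518 to 36067 in Huh7 controls and 51150 to 56848 in resistant cells. TPM keeps no record of sequencing depth, which is unknown here. In 3 groups the A1 library held less of long transcripts relative to short ones than the B1 library did. Across 9293 genes, Spearman's rho of the A1 minus B1 difference with transcript length was -0.61 with lenvatinib, -0.65 in the combination and -0.65 in resistant cells, and between -0.08 and 0.15 in the other groups. These rhos are descriptions across genes, which are not replicates. APOB, with a longest transcript of 14121 bases, and MTTP, with 4092, lie on the long side of this trend, and the other 8 genes, at 604 to 1929 bases, on the short side.

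Every change below is a difference in log2(TPM + 1), a scale on which the change of weakly expressed genes is understated, and was tested with limma across 13645 genes in 12 libraries. A gene was called when its adjusted p (Benjamini-Hochberg) was under 0.05. All 10 genes passed the filter of 1 TPM in at least 2 libraries, 8 of them in all 12. APOA4 passed through 3 libraries, both resistant ones and 1 Huh7 control, and APOA5 through 4, so neither count of calls can be read as support for their direction.

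In Hep3B cells given lenvatinib, APOA1 and APOC3 rose and the other 8 genes did not pass the test. That is 2 of 10 genes, where 2.48% of all genes tested were called. With WWL70 alone 0 of 10 genes were called by limma, 0 also had an unadjusted p under 0.05, and 0.0147% of all genes were called (2.87% at that unadjusted p). In the combination APOA1, APOC3, APOE and APOH rose, which is 4 of 10 against 8.85% of all genes. In resistant Huh7 cells APOA4, APOC3, APOA1 and APOE rose and APOA2 fell, which is 5 of 10 against 18.9% of all genes (12.3% upward and 6.63% downward). APOA4 passed the filter only through the resistant group, so its call in this count could only be a rise. The median change of the 4 cluster genes was 1.53 with lenvatinib, 2.01 in the combination and 2.61 in resistant cells, that of the other 6 genes was 0.08, 0.56 and 0.30, and that of all tested genes was -0.07, -0.34 and -0.06. The 4 cluster genes did not move alike, and their median is the value of none of them. With lenvatinib APOA1 and APOC3 changed by 3.47 and 2.70, but APOA4 and APOA5 by 0.35 and 0.34. In the combination the same genes changed by 4.72, 3.60, 0.02 and 0.42. In resistant cells APOA5 changed by 0.65. Scaling by median ratios brought the median of all tested genes in the combination from -0.34 to 0.00, and changes there then stood at 5.16 for APOA1, 4.03 for APOC3, 1.12 for APOH and 1.73 for APOE. APOE did not pass the limma test on that scale (adjusted p = 0.0743). In bulk samples such as these, fewer cells of a type and less RNA per cell cannot be told apart.

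These counts moved with single libraries. Without any 1 of the 4 libraries of the lenvatinib comparison its calls of APOA1 and APOC3 were lost, and far fewer of all genes were called as well. The changes there were 3.29 to 3.64 for APOA1 and 2.59 to 2.82 for APOC3. For the combination, the calls of APOE and APOH were lost without any 1 of the 10 libraries outside that group, where fewer of all genes were called as well. Without combination B1 many more were called, both among the 10 genes and among all genes. The APOA1 change was 3.88 without combination A1 and 5.56 without combination B1. The resistant count was 3 without Huh7 control A1 or resistant A1 (8.86% and 8.78% of all genes). Without the 3 A1 libraries with less of long transcripts, the counts were 6, 5 and 8 of the 9 genes then tested for lenvatinib, the combination and resistance, and 20.4%, 26.5% and 47.0% of all genes were called.

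**Figure D1:**
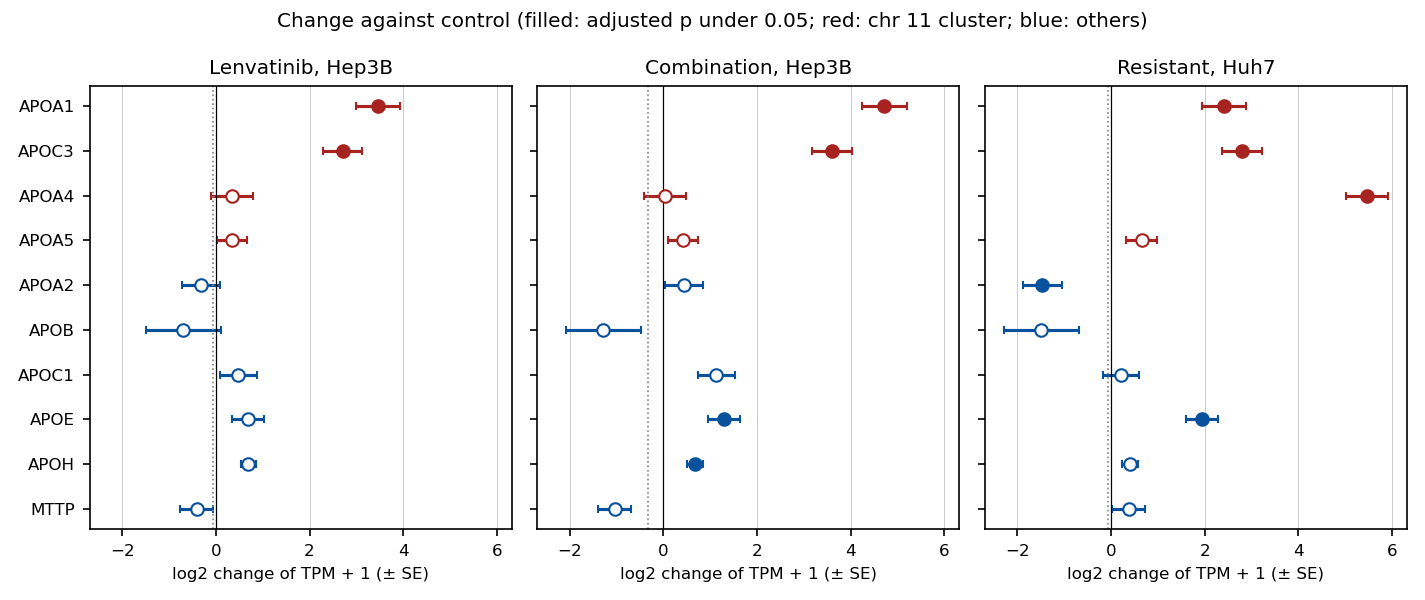
Change of each of the 10 genes against its control, in log2(TPM + 1), for lenvatinib and the combination in Hep3B and for resistance in Huh7. Points are limma estimates, bars are 1 SE, red marks the chromosome 11 cluster, filled points passed the test, and the dotted line is the median of all genes. APOA1 and APOC3 are filled in all 3 panels, and APOA4 is filled in resistant cells, at 5.46.

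The untreated lines differed in 5 of the 10 genes, where 34.4% of all genes were called. APOH (a log2 difference of 2.24, SE 0.16, adjusted p = 1.12e-05), APOA2 (1.75, SE 0.41, adjusted p = 0.0101) and APOE (1.48, SE 0.34, adjusted p = 0.00880) were higher in Hep3B. APOA1 was lower in Hep3B by a log2 difference of -1.76 (SE 0.47, adjusted p = 0.0182), and MTTP by -1.58 (SE 0.35, adjusted p = 0.00792). APOB, APOC1, APOC3, APOA4 and APOA5 did not pass the test. The line and everything else that differed between the cultures cannot be told apart. The APOA1 call was lost without any 1 of the 4 control libraries (adjusted p 0.0757 to 0.0958). The APOA2 call was lost without Hep3B control B1 or either Huh7 control (0.0546 to 0.0617), that of APOE without Hep3B control B1 or Huh7 control A1 (0.0531 to 0.0583), and that of MTTP without Hep3B control A1 or Huh7 control B1 (0.0532 to 0.0542).

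APOA1 encodes the main structural protein of high density lipoprotein and the acceptor of cholesterol exported by ABCA1. It lies at chr11:116835751-116837950 on the minus strand (GRCh38, ENSG00000118137), and APOA1-AS, an antisense gene that was not analysed here, overlaps it. In Hep3B controls APOA1 stood at 224 and 222 TPM (A1, then B1), with lenvatinib at 2796 and 2195, with WWL70 at 201 and 269.8, and in the combination at 10617 and 3293. Both lenvatinib and both combination libraries lay above every control and WWL70 library, and the WWL70 range enclosed the control range. In rank among all genes of a library, APOA1 moved from 598 and 601 in the controls to 26 and 29 with lenvatinib and 11 and 21 in the combination. The change against control was 3.47 (SE 0.47, adjusted p = 0.00876) with lenvatinib and 4.72 (SE 0.47, adjusted p = 0.000937) in the combination. The combination exceeded lenvatinib by 1.25 (SE 0.47), which did not pass the test (adjusted p = 0.420). That difference was 0.41 without combination A1 (adjusted p = 0.746), and 2.10 without combination B1, where it was called (adjusted p = 0.00112).

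In Huh7 cells APOA1 stood at 724 and 799 TPM in the controls and at 5259 and 3111 in the resistant cells. The groups did not overlap, and the lower resistant library was still above both lenvatinib-treated Hep3B libraries. The change was 2.41 (SE 0.47, adjusted p = 0.00769). It differed from the lenvatinib change in Hep3B by -1.06 (SE 0.67), which did not pass the test (adjusted p = 0.521). Without any 1 of the 4 libraries of the lenvatinib comparison the lenvatinib call of APOA1 was lost (adjusted p 0.0657 to 0.109), while the change stayed between 3.29 and 3.64. The resistant call was lost without Huh7 control A1 or without resistant A1 (adjusted p 0.0605 and 0.0734), where the change was 2.34 and 2.03. The combination call held without each library in turn, the change running from 3.88 without combination A1 to 5.56 without combination B1.

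APOC3 encodes a small apolipoprotein that inhibits lipoprotein lipase and hepatic uptake of remnants. It lies beside APOA1 at chr11:116829706-116833072, on the plus strand (ENSG00000110245). APOC3 stood at 19.2 and 21.7 TPM in Hep3B controls, 128 and 150.1 with lenvatinib, 26.9 and 27.9 with WWL70, and 438 and 152 in the combination. It stood at 29.8 and 34.8 TPM in Huh7 controls and at 294 and 182 in resistant cells. Its groups were ordered as those of APOA1 were, with the combination and resistant cells overlapping at the top, followed by lenvatinib, Huh7 controls, WWL70 and Hep3B controls. The change was 2.70 with lenvatinib (SE 0.43, adjusted p = 0.0177), 3.60 in the combination (SE 0.43, adjusted p = 0.00228) and 2.81 in resistant cells (SE 0.43, adjusted p = 0.00199). The WWL70 libraries lay above the controls by 0.41 (SE 0.43), which did not pass the test (adjusted p = 1). Without any 1 of its 4 libraries the lenvatinib call of APOC3 was lost as well (adjusted p 0.129 to 0.145). The calls in the combination and in resistant cells held without each library in turn.

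**Figure D2:**
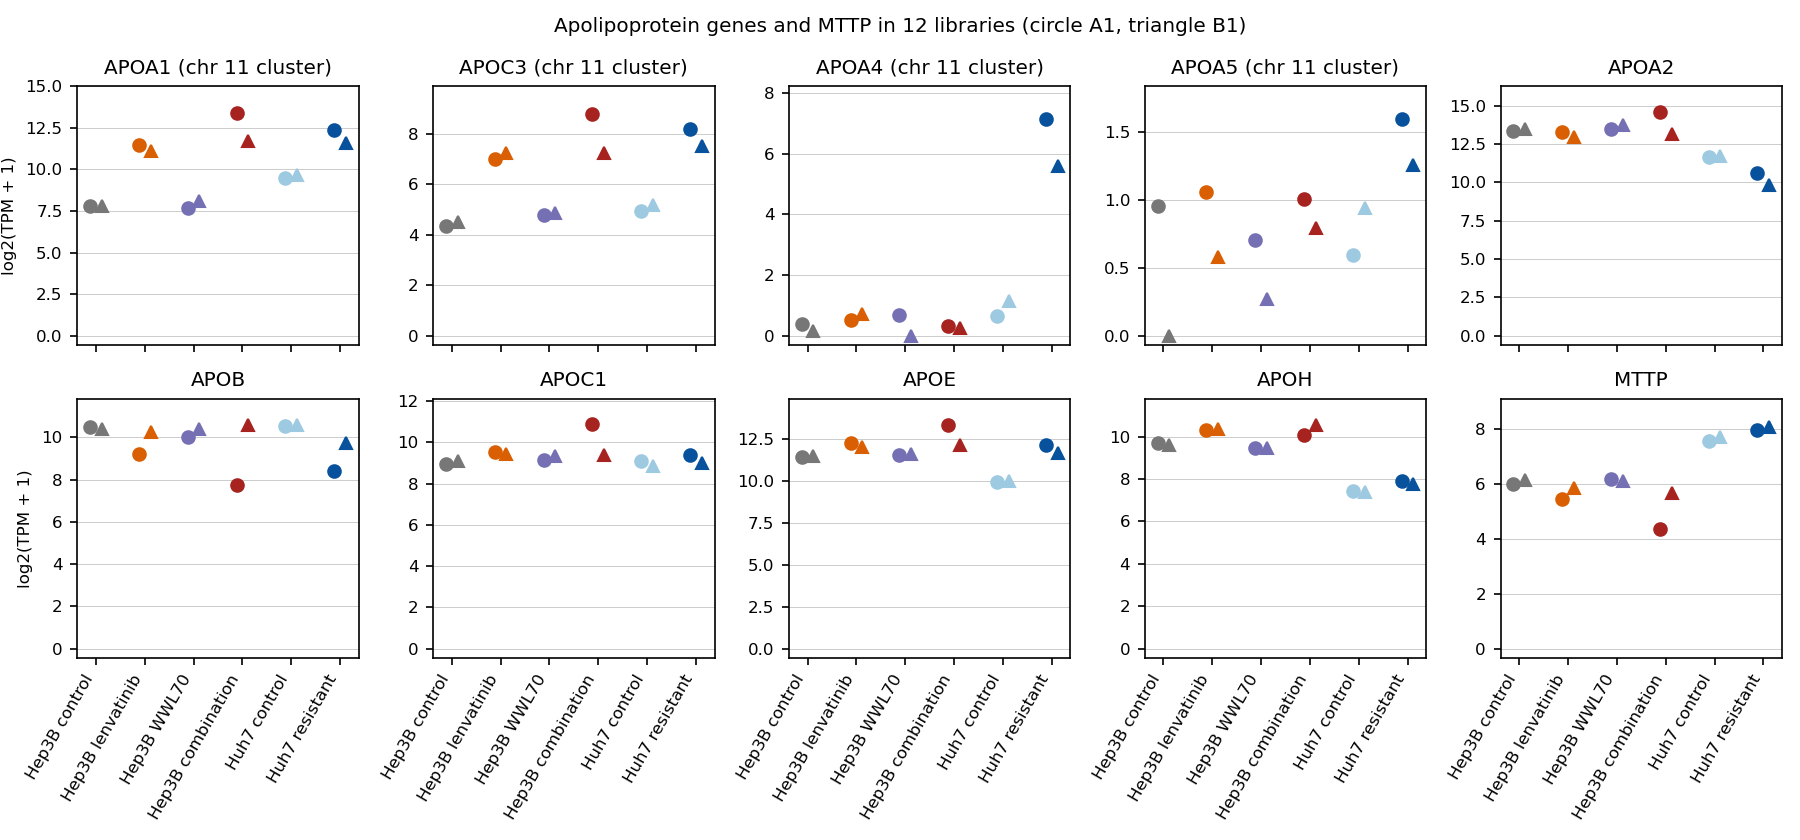
Level of each gene as log2(TPM + 1) in the 12 libraries, by group, with circles for A1 and triangles for B1 and a separate vertical scale per gene. APOA1 and APOC3 are high in the lenvatinib, combination and resistant groups, and APOA4 stands above 40 TPM in the resistant libraries alone, at 47.3 and 139.8 TPM.

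APOA4 encodes a lipid-binding apolipoprotein of intestinal chylomicrons and high density lipoprotein. It lies at chr11:116820700-116823306 on the minus strand (ENSG00000110244), where the antisense gene AP006216.3, not analysed here, overlaps it. The 250 bases before its start are shown, since APOA4 is the cluster gene whose change differed most between resistance in Huh7 and lenvatinib in Hep3B. They run from 5′ to 3′ along the gene (chr11:116823305-116823554, minus strand, RefSeq on GRCh38.p14), and capitals mark a match to CAAAGTCCA, a nuclear receptor motif of the HNF4 type, with at most 1 mismatch.
APOA4: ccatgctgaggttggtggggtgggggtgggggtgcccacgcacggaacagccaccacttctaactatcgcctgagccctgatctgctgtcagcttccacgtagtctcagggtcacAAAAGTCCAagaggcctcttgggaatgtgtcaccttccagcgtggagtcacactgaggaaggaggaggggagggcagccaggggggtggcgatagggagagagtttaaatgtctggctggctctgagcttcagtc
The match lies 135 to 127 bases before the start and reads AAAAGTCCA. On either strand, 5.943% of 35116 promoter windows of this length held such a match.

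In the 8 Hep3B libraries APOA4 lay between 0 and 0.643 TPM. It stood at 0.574 and 1.22 TPM in Huh7 controls and at 139.8 and 47.3 TPM in resistant cells. The resistant libraries lay apart from the other 10 libraries, of which the highest was Huh7 control B1. The change in resistant cells was 5.46 (SE 0.45, adjusted p = 5.52e-05), against 0.35 with lenvatinib in Hep3B (SE 0.45, adjusted p = 0.836) and 0.02 in the combination (SE 0.45, adjusted p = 0.984). The resistance change exceeded the lenvatinib change by 5.11 (SE 0.63, adjusted p = 0.00173). APOA4 was the only 1 of the 10 genes called in that difference, where 6.3% of all genes were called. Without either combination library 4 of the 10 genes were called in it, beside 16.4% of all genes, and without the 3 A1 libraries 7 of 9, beside 23.9%. In resistant cells APOA4 amounted to 2.66% and 1.52% of the APOA1 level in TPM, against 0.08% and 0.15% in Huh7 controls. The call in resistant cells held under all 28 alternatives tried, including the omission of each library. APOA4 passed the filter on low values only through the resistant group, so its call there could only be a rise. That the call held thus gives no support for its direction.

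Markers of several cell types were higher in resistant cells beside APOA4. Of the 6 genes used as enterocyte markers 3 (SI, LCT and CDX2) were called upward there, where 12.3% of all genes were. CDX1 and FABP2 failed the filter on low values and could not be called. The sucrase-isomaltase gene SI was at 1.66 TPM in Huh7 controls and 54.1 in resistant cells (change 4.33, adjusted p = 6.46e-06). The lactase gene LCT stood at 0.617 and 16.0 TPM, and it passed the filter on low values only through the resistant libraries, so that its call could only be a rise there. CDX2, an intestinal transcription factor, went from 13.2 to 50.1 TPM (1.83, adjusted p = 0.000584). VIL1 stood at 193 and 425 TPM (1.13, adjusted p = 0.0505), FABP2 at 0.0605 and 0.899 TPM, and CDX1 was listed at 0 in both groups. The summed level of these 6 markers was 207 to 210.3 TPM in Huh7 controls and 499.5 to 593 in resistant cells. Some markers fixed for other cell types rose as well: KRT19 (2.92, adjusted p = 0.000417) and EPCAM (2.90, adjusted p = 1.22e-05) of the cholangiocyte and progenitor list, the macrophage marker CD68 (1.73, adjusted p = 0.00635), and the hepatocyte markers TTR (1.69, adjusted p = 0.00985) and FGB (0.97, adjusted p = 0.0288). Others did not pass the limma test. Lower were SOX9 of the progenitor list (-1.19, adjusted p = 0.0616), the endothelial marker PECAM1 (-0.83, adjusted p = 0.0856) and the hepatocyte marker TF (-0.20). The hepatocyte markers ALB (0.51), SERPINA1 (0.42) and AFP (0.82) and the collagen gene COL1A2 (0.39) were higher. KRT7 stood at 0 TPM in both Huh7 groups, and the immune marker PTPRC at 0.0325 and 0.34. Unlike these, the collagen gene COL1A1 was called upward, from 0.687 TPM in Huh7 controls to 7.05 in resistant cells (2.27, limma adjusted p = 0.00108). Its group means were at most 1.25 TPM outside the resistant cells, so its call gives no support for its direction. The part of these markers in the APOA4 result was not tested.

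APOA5 encodes a scarce liver apolipoprotein that promotes lipolysis by lipoprotein lipase. It lies at chr11:116789367-116792420 on the minus strand (ENSG00000110243). The 250 bases before the upstream of its RefSeq starts are shown (chr11:116792421-116792670, minus strand, GRCh38.p14), since they hold the only match to a longer nuclear receptor motif among the 7 of the 10 genes that had a promoter window to search. This is DR1, a direct repeat of AGGTCA with 1 base between the copies, searched with at most 2 mismatches. The match, in capitals, lies 242 to 230 bases before the start, and 2.571% of all promoter windows held one.
APOA5: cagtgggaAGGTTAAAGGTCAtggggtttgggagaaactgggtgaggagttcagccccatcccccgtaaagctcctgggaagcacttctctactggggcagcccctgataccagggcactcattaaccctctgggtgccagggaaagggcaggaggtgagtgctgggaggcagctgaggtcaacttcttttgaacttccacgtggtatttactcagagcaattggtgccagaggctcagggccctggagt
APOA5 lay between 0 and 1.08 TPM in the 8 Hep3B libraries, at 0.51 and 0.918 TPM in Huh7 controls and at 2.01 and 1.38 TPM in resistant cells. The resistant libraries were the highest of the 12. No comparison called APOA5, and its change in resistant cells was 0.65 (SE 0.32, adjusted p = 0.211).

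Only 3 other genes of the table lie within 250 kb of the cluster, the splicing factor gene BUD13 and the zinc finger gene ZPR1 on one side and the kinase gene SIK3 on the other. All 3 were tested and 0 were called by limma in any of the 9 comparisons. Of all genes 2.48% were called with lenvatinib, 8.85% in the combination and 18.9% in resistant cells. With only 3 genes, 0 calls cannot be told apart from these shares. With lenvatinib BUD13 changed by 0.26 (adjusted p = 0.671), ZPR1 by -0.07 (adjusted p = 0.928) and SIK3 by -0.39 (adjusted p = 0.820). In resistant cells the values were -0.53 (adjusted p = 0.0865), -0.32 (adjusted p = 0.250) and 0.00 (adjusted p = 1).

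APOA2, the second most abundant protein of high density lipoprotein, is encoded at chr1:161222292-161223631 on the minus strand (ENSG00000158874). Its upstream 250 bases are shown beside those of the cluster, since its level moved against that of APOA1 in resistant cells (chr1:161223629-161223878, minus strand, GRCh38.p14). They hold no match to either receptor motif and no TATAAA in the last 60 bases, a motif that 3.748% of promoters held there.
APOA2: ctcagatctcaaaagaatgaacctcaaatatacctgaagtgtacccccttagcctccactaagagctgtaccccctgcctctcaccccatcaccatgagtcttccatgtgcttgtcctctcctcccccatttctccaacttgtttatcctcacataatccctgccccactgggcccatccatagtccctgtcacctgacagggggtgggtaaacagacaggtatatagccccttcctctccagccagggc
APOA2 stood at 10629 and 11496 TPM in Hep3B controls, 9838 and 8002 with lenvatinib, 11463 and 14012 with WWL70, and 24365 and 9222 in the combination. Both lenvatinib libraries lay below the controls, and the combination libraries lay on either side of them. No Hep3B comparison called APOA2, with changes of -0.32 (SE 0.41, adjusted p = 0.842) with lenvatinib and 0.44 (SE 0.41, adjusted p = 0.455) in the combination.

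In Huh7 cells APOA2 stood at 3224 and 3343 TPM in the controls and at 1541 and 913 in resistant cells. Both resistant libraries lay below both controls, and APOA2 fell by 1.47 on the log2 scale (SE 0.41, adjusted p = 0.0374). That call was lost under 12 of 28 alternatives. Among these was the omission of any 1 of 10 of the 12 libraries, all except the combination pair, where the change lay between -1.85 and -1.09. It was also lost with median-ratio scaling (-1.37, limma adjusted p = 0.147) and with no filter on low values (limma adjusted p = 0.0569). The ratio of APOA1 to APOA2, both in TPM, was 0.0211 and 0.0194 in Hep3B controls, 0.284 and 0.274 with lenvatinib, 0.0176 and 0.0193 with WWL70, and 0.436 and 0.357 in the combination. It was 0.225 and 0.239 in Huh7 controls and 3.41 in each resistant library. The A1 and B1 libraries of a group lay close together in this ratio, and APOA1 exceeded APOA2 in the resistant libraries alone.

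**Figure D3:**
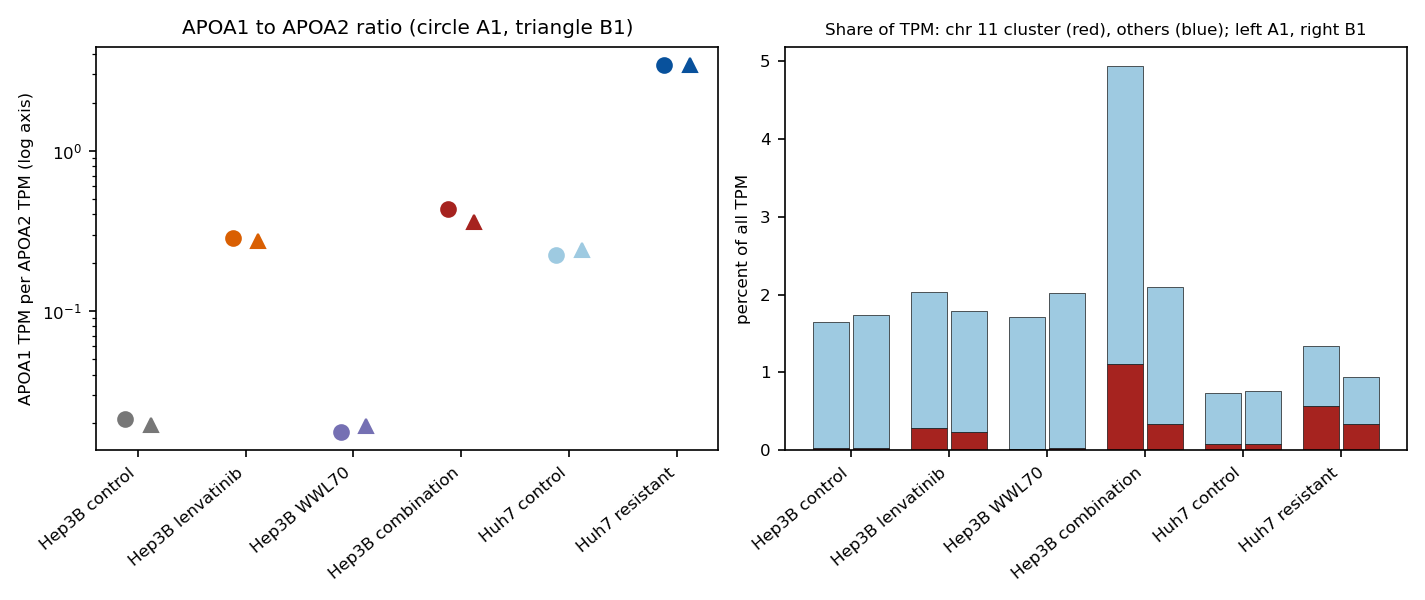
Left, TPM of APOA1 per TPM of APOA2 in each library, on a log axis, with circles for A1 and triangles for B1. Right, percent of all TPM held by the 4 cluster genes (red) and the other 6 genes (blue), with A1 on the left of each pair. The ratio runs from 0.0176 to 3.41, and the cluster holds 1.34% to 42.6% of the summed TPM of the 10 genes.

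The 10 genes together held 1.65% and 1.74% of all TPM in Hep3B controls, 2.03% and 1.79% with lenvatinib, and 4.93% and 2.10% in the combination. They held 0.735% and 0.759% in Huh7 controls and 1.34% and 0.943% in resistant cells. Of that sum the cluster took 1.48% and 1.41% in Hep3B controls and 14.4% and 13.1% with lenvatinib. In the combination it took 22.4% and 16.4%, in Huh7 controls 10.3% and 11.01%, and in resistant cells 42.6% and 35.5%. The share was higher in every lenvatinib, combination and resistant library than in the control libraries of the same line, and with WWL70 it stood at 1.34% and 1.47%. Most of this share was APOA1, which stood at 7.48 to 24.3 times the TPM of APOC3 across the 12 libraries. APOA4 reached at most 2.66% of the APOA1 level, and APOA5 at most 2.01 TPM.

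APOE encodes the ligand by which remnant particles bind the LDL receptor, and APOC1 a small inhibitor of that uptake. They are neighbours on the plus strand of chromosome 19, at chr19:44905754-44909393 (ENSG00000130203) and chr19:44914247-44919349 (ENSG00000130208), and AC011481.3, not analysed here, overlaps both on the same strand. APOE stood at 2814 and 2889 TPM in Hep3B controls, 4928 and 4229 with lenvatinib, 3004 and 3131 with WWL70, and 10661 and 4564 in the combination. The lenvatinib and combination libraries were above the controls and overlapped each other. APOE rose by 1.29 in the combination (SE 0.34, adjusted p = 0.0494), while its change with lenvatinib alone was 0.68 (SE 0.34, adjusted p = 0.456). The call in the combination was lost under 19 of 27 alternatives, among them the omission of any 1 of the 11 libraries other than combination B1 (adjusted p 0.0614 to 0.226). Without combination A1 the change was 0.68.

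In Huh7 cells APOE stood at 991 and 1048 TPM in the controls and at 4655 and 3342 in resistant cells. The change was 1.95 (SE 0.34, adjusted p = 0.00410), and the call held under all 28 alternatives. It exceeded the change with lenvatinib in Hep3B by 1.27 (SE 0.48), which did not pass the test (adjusted p = 0.193). APOC1 stood at 543 and 455 TPM in Huh7 controls and at 664 and 502 in resistant cells, groups that overlap. Its change there was 0.21 (SE 0.39, adjusted p = 0.761). The ratio of APOE to APOC1 in TPM was 1.82 and 2.30 in Huh7 controls and 7.01 and 6.66 in resistant cells, and it lay between 4.85 and 6.78 in the 8 Hep3B libraries. In Hep3B APOC1 stood at 496 and 537 TPM in the controls, 741 and 695 with lenvatinib, 571 and 645 with WWL70, and 1903 and 673 in the combination. APOC1 was not called with lenvatinib (0.47, SE 0.39, adjusted p = 0.721) or in the combination (1.13, SE 0.39, adjusted p = 0.102). Its change in the combination was 0.38 without the A1 library.

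APOH encodes beta-2-glycoprotein I, a plasma protein that binds anionic phospholipid. Its gene lies at chr17:66212033-66256525 on the minus strand (ENSG00000091583). It stood at 828 and 781 TPM in Hep3B controls, 1279 and 1327 with lenvatinib, 716 and 709.7 with WWL70, and 1098 and 1501 in the combination. Both lenvatinib and both combination libraries were above the controls, and both WWL70 libraries were below them. The change was 0.70 with lenvatinib (SE 0.16, adjusted p = 0.0692) and 0.67 in the combination (SE 0.16, adjusted p = 0.0369). APOH also rose in the combination against WWL70, by 0.85 (SE 0.16, adjusted p = 0.0181). The call against control was lost under 16 of 27 alternatives, among them the omission of any 1 of the 10 libraries outside the combination (changes 0.63 to 0.72). That against WWL70 was lost under 7 of 27, among them the omission of either WWL70 library (0.84 and 0.85). Both were lost with quantile normalization (limma adjusted p = 0.164 and 0.120). Both were also lost with a correction for transcript length (changes 0.52 and 0.67, limma adjusted p = 0.182 and 0.101). In Huh7 cells APOH stood at 173 and 167 TPM in the controls and at 236 and 215 in resistant cells, a change of 0.41 (SE 0.16, adjusted p = 0.122).

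APOB is encoded at chr2:21001429-21044073 on the minus strand (ENSG00000084674), and AC010872.1, not analysed here, overlaps it on the other strand. It stood at 1447 and 1349 TPM in Hep3B controls, 596 and 1244 with lenvatinib, 1055 and 1355 with WWL70, and 211 and 1555 in the combination. In Huh7 cells it stood at 1478 and 1537 TPM in the controls and at 342 and 846 in resistant cells. The A1 library was the low one of each exposed or resistant pair, by 1.06 with lenvatinib, 2.88 in the combination and 1.30 in resistant cells, while the control pairs differed by 0.10 and 0.06. Both lenvatinib and both resistant libraries lay below their controls, and the combination libraries lay on either side of theirs.

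No comparison called APOB, whose changes were -0.70 with lenvatinib (SE 0.80, adjusted p = 0.810), -1.28 in the combination (SE 0.80, adjusted p = 0.273) and -1.48 in resistant cells (SE 0.80, adjusted p = 0.251). With a correction of each library for transcript length they were -0.42, -0.43 and -1.25, and the last of these passed the test (adjusted p = 0.0301). Without the A1 libraries of the lenvatinib, combination and resistant groups, the change in the combination was 0.15 (adjusted p = 0.428) and that in resistant cells was -0.83 (adjusted p = 0.00184). Without combination B1 the change in the combination was -2.72 (adjusted p = 0.00172). The cause of the difference between A1 and B1 libraries was not tested.

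**Figure D4:**
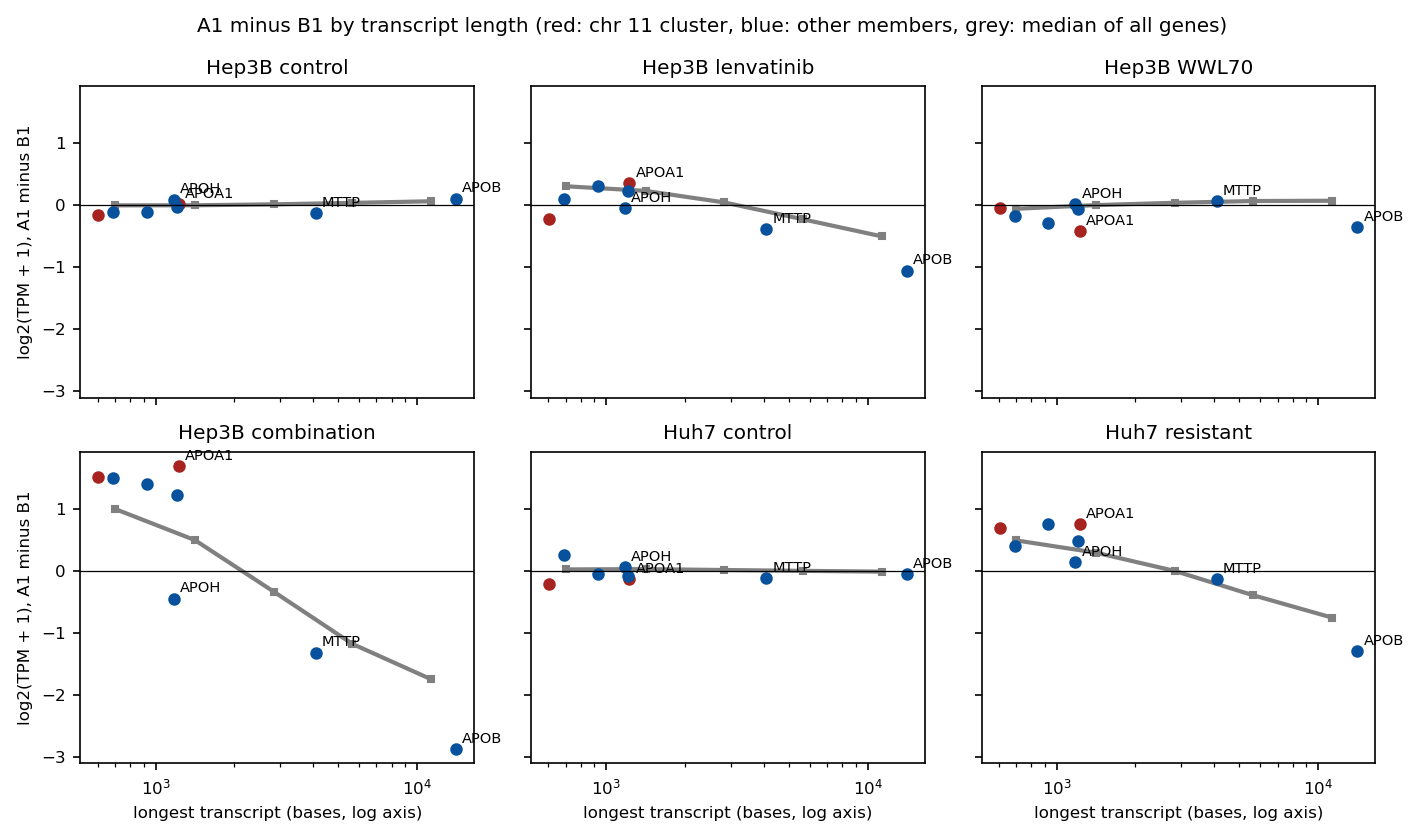
Difference between the A1 and B1 libraries of each group, in log2(TPM + 1), against the length of the longest annotated transcript on a log axis. Points are the 8 genes at 1 TPM or more in all libraries, red for the chromosome 11 cluster and blue for the others. The grey line is the median, in 5 length classes, of the 9293 tested genes with a mean of at least 10 TPM and a known length. In the combination the grey line runs from 0.996 for transcripts under 1 kb to -1.75 over 8 kb, and APOB lies at -2.88.

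MTTP loads lipid onto nascent APOB and is encoded at chr4:99563761-99623999 on the plus strand (ENSG00000138823), overlapped on the other strand by TRMT10A, which is also in the table, and by AC083902.1, not analysed here. No source used here gives whether counting used strand. The 250 bases before the downstream of its RefSeq starts are shown (chr4:99574574-99574823, plus strand, GRCh38.p14), where TGGAGTTTG, a match to CAAAGTCCA on the opposite strand, lies 64 to 56 bases before the start and is in capitals.
MTTP: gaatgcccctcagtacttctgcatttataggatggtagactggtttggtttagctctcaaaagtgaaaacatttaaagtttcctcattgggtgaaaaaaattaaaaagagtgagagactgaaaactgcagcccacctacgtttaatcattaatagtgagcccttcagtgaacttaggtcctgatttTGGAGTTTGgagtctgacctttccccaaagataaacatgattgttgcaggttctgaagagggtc
MTTP stood at 62.0 and 68.3 TPM in Hep3B controls, 42.5 and 56.1 with lenvatinib, 71.1 and 68.0 with WWL70, and 19.3 and 49.7 in the combination. It stood at 188 and 205 TPM in Huh7 controls and at 243 and 267 in resistant cells. The lenvatinib and combination libraries lay below the Hep3B controls, and the resistant libraries above the Huh7 controls. No comparison with a control group of the same line called MTTP: its changes were -0.41 with lenvatinib (SE 0.35, adjusted p = 0.739), -1.04 in the combination (SE 0.35, adjusted p = 0.0979) and 0.38 in resistant cells (SE 0.35, adjusted p = 0.526). Without the 3 A1 libraries named above they were called in the combination at -0.38 (adjusted p = 0.0248) and in resistant cells at 0.44 (adjusted p = 0.00752). The ratio of APOB to MTTP in TPM was 7.86 and 7.50 in Huh7 controls and 1.40 and 3.17 in resistant cells.

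RefSeq promoter windows were matched for 7 of the 10 genes, at 11 starts, and APOA1, APOC3 and APOB had none. Of these windows, APOE at the start at position 44906401 held the remaining match, TGGAATTTG on the opposite strand 54 to 46 bases before the start. The 7 genes thus held 3 windows with the 9-base motif and 1 with the 13-base motif, and none held TATAAA in the last 60 bases. A match of letters is a description and names no bound site.

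The combination was also set against each compound alone. Against lenvatinib 0 of the 10 genes were called by limma, 1 (APOA1) had an unadjusted p under 0.05, and 0.022% of all genes were called (11.1% at that unadjusted p). Without combination B1 this count was 7, and 57.4% of all genes were called. Against WWL70, APOA1 (4.66, SE 0.47, adjusted p = 0.00141), APOC3 (3.19, SE 0.43, adjusted p = 0.00486) and APOH rose, where 7.9% of all genes were called. The APOC3 call was lost without WWL70 A1 (adjusted p = 0.0587), and without combination B1 the count was 8 (63.1% of all genes). The interaction of the compounds called 0 of the 10 genes and 0.00733% of all genes. At an unadjusted p under 0.05 it gave 0 of the 10 and 5.12% of all genes. Its largest value was 1.19 for APOA1 (SE 0.67, adjusted p = 0.767), which was 0.35 without combination A1 and 2.04 without combination B1 (adjusted p = 0.00732). Without combination B1 it called 6 of the 10 genes and 44.5% of all genes. These comparisons share libraries with those against control. With WWL70 alone the changes lay between -0.22 for APOB (SE 0.80) and 0.41 for APOC3, each with an adjusted p of 1, which does not show that WWL70 left the genes alike.

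The other genes of lipoprotein metabolism were read from 5 lists. With WWL70 alone none of their tested genes was called by limma, and 1 had an unadjusted p under 0.05. Of 10 tested among 14 further apolipoproteins, 0 were called with lenvatinib by limma (2 at an unadjusted p under 0.05), 1 fell in the combination, and in resistant cells 5 rose and 2 fell. Of all genes 2.48%, 8.85% and 18.9% were called in these 3 comparisons. Among the 5, APOL1 stood at or under 0.16 TPM in the other 10 libraries and at 2.03 and 1.97 in the resistant ones, so it passed the filter on low values only through them. APOD, a lipocalin, went from 1.24 TPM in Huh7 controls to 68.7 in resistant cells (4.92, SE 0.25, adjusted p = 5.68e-06). SAA4, a constitutive apolipoprotein of high density lipoprotein, went from 5.14 to 27.4 TPM (2.20, SE 0.59, adjusted p = 0.0317). APOM, the carrier of sphingosine-1-phosphate on high density lipoprotein, fell from 88.2 to 23.4 TPM in resistant cells (-1.91, SE 0.35, adjusted p = 0.00547) and from 42.5 to 13.3 TPM in the combination (-1.67, SE 0.35, adjusted p = 0.0240). In resistant cells APOL6 also rose (1.23, adjusted p = 0.0466) and APOO, a mitochondrial protein gene, fell (-1.01, adjusted p = 0.0194). The APOD call held under all 28 alternatives, while that of SAA4 was lost without any 1 of 8 libraries (adjusted p up to 0.169), that of APOL6 without any 1 of 10 (0.0665 to 0.225), and that of APOO without any 1 of its 4 (0.0504 to 0.157). The APOM call was lost in resistant cells without Huh7 control B1 (adjusted p = 0.0547) and in the combination without any 1 of the 4 control libraries of either line (0.0501 to 0.165).

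Of 17 genes of lipoprotein assembly and secretion, all tested, 1 rose and 1 fell with lenvatinib, 2 rose and 2 fell in the combination, and 7 rose and 0 fell in resistant cells, beside 2.48%, 8.85% and 18.9% of all genes. The genes that rose in resistant cells included AADAC, an endoplasmic reticulum lipase gene that went from 6.01 to 60.7 TPM (3.13, SE 0.32, adjusted p = 0.000204). The carboxylesterase gene CES1 went from 7.30 to 31.8 TPM (1.97, SE 0.18, adjusted p = 0.000105), and TM6SF2, which acts in lipidation of very low density lipoprotein, from 6.76 to 28.8 TPM (1.93, SE 0.29, adjusted p = 0.00200). These 3 calls held under all 28 alternatives. With lenvatinib PLTP, the phospholipid transfer protein gene, stood at 7.56 and 4.84 TPM in controls and 17.7 and 15.3 in treated cells (1.30, SE 0.27, adjusted p = 0.0432). PDIA3, a disulfide isomerase of the endoplasmic reticulum, fell from 1165 to 613 TPM (-0.92, SE 0.19, adjusted p = 0.0454). Both lenvatinib calls were lost without any 1 of 10 libraries, all but the combination pair (adjusted p 0.0650 to 0.367). The fall of PDIA3 in the combination (-1.45, SE 0.19, adjusted p = 0.00359) held under all 27 alternatives. DGAT2, which makes triglyceride, rose in the combination (1.27, adjusted p = 0.0308) and SURF4, a cargo receptor of secretion, fell (-0.57, adjusted p = 0.0285). Both calls were lost without either Hep3B control, among other libraries (adjusted p up to 0.212), and that of SURF4 also with the length correction (0.209).

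Of 8 tested among 11 genes of plasma remodelling, 1 rose and 1 fell with lenvatinib and in the combination, and 2 rose and 1 fell in resistant cells, with the same shares of all genes (2.48%, 8.85% and 18.9%). LIPC, the hepatic lipase gene, stood at 23.4 and 23.6 TPM in Hep3B controls, 66.6 and 54.1 with lenvatinib and 84.4 and 60.4 in the combination (1.32, SE 0.22, adjusted p = 0.0211, and 1.56, SE 0.22, adjusted p = 0.00472). In Huh7 it went from 71.4 and 82.9 TPM to 333 and 339 in resistant cells (2.11, SE 0.22, adjusted p = 0.000233). ANGPTL8, an inhibitor of lipoprotein lipase, stood at 881 and 965 TPM in Hep3B controls and 154 and 164 with lenvatinib, a change of -2.53 (SE 0.41, adjusted p = 0.0202). It was at or under 1.03 TPM in all Huh7 libraries. The lenvatinib calls of LIPC and ANGPTL8 were lost without any 1 of the 4 libraries compared (adjusted p up to 0.192). LIPC was also lost without either Huh7 control (lowest adjusted p 0.0508), and its combination call without either Hep3B control (0.0541 and 0.0543).

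Of 11 tested among 12 receptors and lipid exporters, 0 were called with lenvatinib by limma (1 at an unadjusted p under 0.05), 1 fell in the combination, and 3 rose and 1 fell in resistant cells, where the shares of all genes were again 2.48%, 8.85% and 18.9%. CUBN, which encodes cubilin, an endocytic receptor that binds APOA1, went from 0.522 and 0.483 TPM in Huh7 controls to 20.5 and 23.5 in resistant cells. It lay at or under 0.162 TPM in all Hep3B libraries, and so it passed the filter on low values only through the resistant group and its call could only be a rise there. The same holds for ABCG5, a sterol exporter gene, at or under 0.56 TPM elsewhere and at 1.09 to 2.10 TPM in resistant cells. VLDLR went from 9.54 to 25.6 TPM (adjusted p = 0.0203), and LRP8, another receptor of this family, fell from 27.9 to 5.85 TPM (-2.26, SE 0.48, adjusted p = 0.0113). SCARB1, the receptor for high density lipoprotein, fell from 160.2 to 88.0 TPM in the combination (adjusted p = 0.0277). The VLDLR call was lost without any 1 of its 4 libraries (0.0818 to 0.136), that of LRP8 without either Huh7 control or resistant A1 (0.0671 to 0.0777), and that of SCARB1 without either control or any of 4 other libraries (0.0565 to 0.181) and with the length correction.

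Of 27 transcription regulators of apolipoprotein genes, all tested, 1 rose and 0 fell with lenvatinib, 1 rose and 5 fell in the combination, and 3 rose and 2 fell in resistant cells. The shares of all genes were 2.48%, 8.85% and 18.9%, so that 5 of 27 in resistant cells is about the share of all genes. CREB3L3, a membrane-bound factor of the liver that acts on APOA4 and APOA5 in mice, was called upward in all 3. It stood at 4.73 and 5.29 TPM in Hep3B controls, 12.7 and 13.1 with lenvatinib (1.21, SE 0.18, adjusted p = 0.0127), and 9.76 and 9.09 in the combination (0.80, SE 0.18, adjusted p = 0.0292). In Huh7 it went from 57.2 and 63.3 TPM to 197 and 189.96 in resistant cells (1.67, SE 0.18, adjusted p = 0.000249). The groups did not overlap, but the lenvatinib call was lost without any 1 of its 4 libraries (adjusted p 0.110 to 0.141) and the combination call without any 1 of 10 (0.0524 to 0.198). HNF4A, the nuclear receptor named above, stood at 133 TPM in Hep3B controls and 147 with lenvatinib (0.13, adjusted p = 0.937), and at 129 and 163 TPM in control and resistant Huh7 (0.32, adjusted p = 0.594). The bile acid receptor gene NR1H4 fell in resistant cells from 209.9 to 66.1 TPM (-1.66, SE 0.24, adjusted p = 0.00155). NR0B2 (-1.46, adjusted p = 0.0248), SREBF1 (-1.07, adjusted p = 0.00636) and CEBPB (-1.06, adjusted p = 0.0132) were among those that fell in the combination, and all 3 calls were lost without either Hep3B control (adjusted p up to 0.181). SREBF1 also fell in resistant cells (-0.73, adjusted p = 0.0130) and NR1H2 rose (0.65, adjusted p = 0.0372), both lost without any 1 of the 4 Huh7 libraries (0.0598 to 0.237), and NR1H2 also without any 1 of 6 others (from 0.0653).

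**Figure D5:**
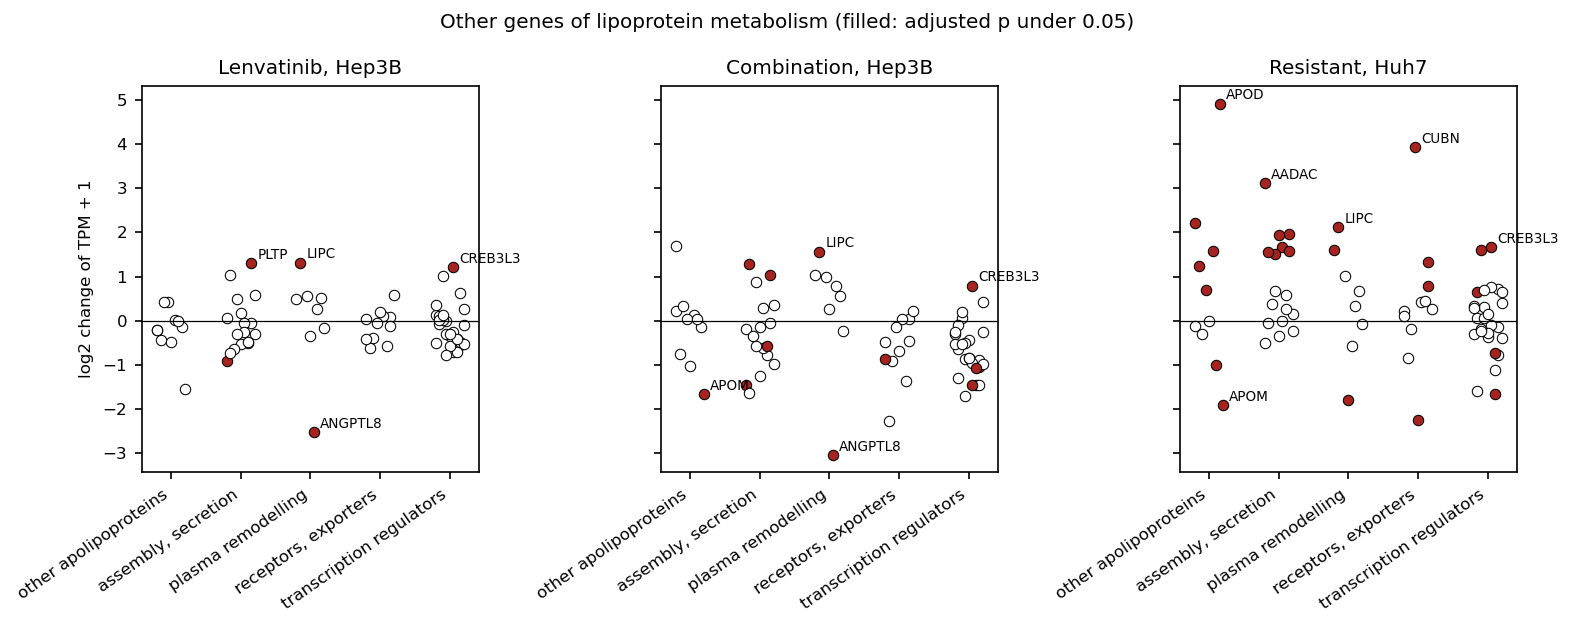
Change in log2(TPM + 1) of the tested genes of the 5 lists, for lenvatinib and the combination in Hep3B and for resistance in Huh7. Each point is a gene, and filled points passed the test. LIPC and CREB3L3 are filled above 0 in all 3 panels, and ANGPTL8 is filled in both Hep3B panels at -2.53 and -3.04.

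The genes most like APOA1 over the 6 group means were found by the root mean square difference of log2(TPM + 1), each gene centred on its own mean. HPX, the haem carrier hemopexin, was nearest at 0.20, with 13.7 TPM in Hep3B controls, 204 with lenvatinib, 11.1 with WWL70, 387 in the combination, 43.8 in Huh7 controls and 249.98 in resistant cells. ADH1A (0.73), PPP1R1A (0.77), C1S (0.84) and VTN (0.85) followed, and among the 10 genes APOC3 stood at 0.55 from APOA1 and APOE at 1.59. The 5 genes most like APOB were ZFP37, ZNF217, ANP32E, TAF1A and DHX33, at 0.08 to 0.12, with longest transcripts of 1966 to 6266 bases. Within 100 kb of APOE and APOC1 (7 tested genes) RELB rose in the combination and TOMM40 fell in resistant cells. Within 100 kb of APOA2 (12 tested genes) 2 fell with lenvatinib, and 1 each with WWL70, in the combination and in resistant cells. Of all genes 2.48%, 0.0147%, 8.85% and 18.9% were called in these comparisons, in the same order. Between the untreated lines 7 of the 12 near APOA2 were higher in Hep3B, beside 34.4% of all genes. Near APOE and APOC1 1 was higher there and 1 lower. These counts were not tested against the shares. None of the 2 tested near APOH or the 1 near MTTP was called against a control, and 0 were tested near APOB.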

How the data were processed

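The authors deposited 1 table of TPM for 12 libraries. The submitters' processing notes name fastp 0.18.0 and build hg38. Which aligner, quantification tool and annotation were used is not given in the sources used here. Per the labels' protocols, mRNA was captured on beads, fragmented by heat and sequenced on an Illumina instrument.

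Symbols came from a table of gene names, and coordinates and transcript lengths from GENCODE 29 (GRCh38, 1-based). Genes that reached 1 TPM in 2 or more libraries were analysed as log2(TPM + 1). A limma fit (3.58.1, R 4.3.3) took 1 mean for each group over the 12 libraries, with a trend of variance on level (6 residual degrees of freedom, prior 2.91), and adjusted p-values are Benjamini-Hochberg over 13645 genes in each of 9 comparisons. With 2 libraries against 2, the smallest two-sided p an exact permutation test can give is 0.333, so none was run. The fit was tested on simulated data.

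The 10 genes, the 5 lists and the tests were chosen with earlier results of these data known. All 10 genes are named in every main comparison, and from each list up to 3 called genes a direction with the largest change and at least 5 TPM in the higher group. Genes near the 10, the 5 most like APOA1 or APOB, and enterocyte and hepatocyte markers were named by rule. HNF4A was named after its values were seen. Some genes that these rules name are not reported here, though they stay in the counts. Alternatives were pseudocounts of 0.1 and 5, other filters, scalings and limma settings, a fit within each line, a replicate block, a lowess correction for transcript length and the omission of each library. Omitting the 3 A1 libraries of the lenvatinib, combination and resistant groups, and joining the length correction with the block, were added after seeing the data. The A1 minus B1 differences correlated above 0.1 in 3 of 15 pairs of groups, with r from -0.12 to 0.74. The labels do not say what the letters mark, so the reported fit treated them as names. What libraries of 1 letter share in some groups was not tested.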

Additional observations from a re-analysis of the deposited data

Results flagged for a closer look

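The change of APOA4 in resistant against control Huh7 cells exceeded its change with lenvatinib in Hep3B by 5.11 on the log2(TPM + 1) scale (SE 0.63, limma adjusted p = 0.00173). The resistant libraries stood at 139.8 and 47.3 TPM, and the Hep3B lenvatinib libraries at 0.429 and 0.643. APOA4 reached 1 TPM in the resistant libraries and 1 Huh7 control library, so it passed the filter on low values only through the resistant group, and a gene that enters this way had to be higher there. The comparison joins a cell line and a kind of exposure, which cannot be told apart.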

How the results depend on the processing

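With 2 libraries a group and unknown depth, most calls among the 10 genes were close to what the spread allows, and a library left out of a pair leaves the other assumed to vary like the remaining groups. The combination calls of APOA1 and APOC3 held under all 27 alternatives, and the resistant calls of APOA4, APOC3 and APOE under all 28. For APOA4 this gives no support for its direction, since it passed the filter on low values only through the resistant group. The share of all genes called often moved with the setting, so the counts below are not results about the 10 genes alone. For lenvatinib that share was 16.5% with array weights, 0.594% within each line and 12% without the combination group, against 2.48% as reported. For the combination it was 8.66% without a trend, 0.41% with array weights and 2.51% within each line, against 8.85%. The counts of called genes among the 10 moved as follows, each by its setting, and the cause was not tested. For lenvatinib (2 reported) they were 4 with array weights, 0 within each line, 4 without the combination group, 6 of 9 tested without the 3 A1 libraries, and 0 to 4 with 1 library left out. For the combination (4) they were 2 without a trend, 2 with array weights, 2 within each line, and 2 to 8 with 1 library left out. For the combination against lenvatinib (0) and for the interaction (0) leaving out combination B1 gave 7 and 6, and any other library 0. For the combination against WWL70 (3) they were 6 without the 3 A1 libraries and 1 to 8 with 1 left out. For resistance (5) they were 8 without the 3 A1 libraries and 3 to 7 with 1 left out. For the untreated lines (5) they were 3 with median-ratio scaling and 2 to 6 with 1 library left out. For resistance minus lenvatinib (1) they were 2 with quantile normalization, 4 with array weights, 4 without the combination group, 2 with the length correction, 7 without the 3 A1 libraries, 2 with the length correction and the replicate block, and 1 to 4 with 1 library left out. The gap between the cluster median and that of the other 6 genes went from 1.45 to 1.99 with lenvatinib and from 1.45 to 2.06 in the combination at a pseudocount of 0.1. It was not run where APOA5 failed the filter. The replicate block gave 2 calls for lenvatinib, 4 for the combination and 5 for resistance, as reported, and ended no call of the 10 genes. Against WWL70 it gave 4, APOE being added. APOA2 in the combination against WWL70 went from 0.24 to -0.46 without the 3 A1 libraries.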
